A study of Homo sapiens with 4 samples.

Results

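Small nucleolar RNAs of the C/D and H/ACA classes, the small Cajal body RNAs and the long noncoding RNAs that carry such RNAs in their introns were examined in SK-N-SH cells after exposure to a dioxin. The rows were chosen by gene symbol from the deposited table: a row belonged to the group when the platform annotation gave it exactly 1 symbol and that symbol started with SNORD (C/D), SNORA (H/ACA), SCARNA (Cajal body) or SNHG, or was GAS5. This gave 48 of 13493 features: 20 C/D, 17 H/ACA and 9 Cajal body rows, and 2 host rows, SNHG8 and SNHG33. GAS5 had no row of its own and lay, like 17 other annotations with such a symbol, in a row shared with further symbols, which gave 18 rows that were not counted as members. The features analysed here lie on chromosomes 1 to 5, so RNAs of the other chromosomes were not analysed here. The RNA family was selected with the difference between the TCDD and DMSO arrays already known. Its counts, changes and calls in that contrast are therefore a description and not independent evidence. Members are labelled as called or not by a limma fit over all features, and their p-values are not given.

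SK-N-SH is an established human neuroblastoma line, labelled here as brain tissue, that holds neuroblast-type and substrate-adherent cells. Cells were exposed for 24 h to 2,3,7,8-tetrachlorodibenzo-p-dioxin (TCDD), the agonist of the aryl hydrocarbon receptor (AhR), at 1e-10 M, and control cells received its solvent, dimethyl sulfoxide (DMSO), which the TCDD cells received too. Total RNA of 2 samples per group, called biological replicates by the labels without further detail, was hybridised to the Affymetrix Human Transcriptome Array 2.0, 1 array per sample and 4 arrays in all. The number of arrays limits the precision of every value.

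C/D RNAs guide 2′-O-methylation and H/ACA RNAs guide pseudouridylation, mainly of ribosomal RNA, by base pairing with the target while a set of core proteins (FBL, NOP56, NOP58 and SNU13, or DKC1, GAR1, NHP2 and NOP10) holds the enzyme in place. Cajal body RNAs carry 1 or both of these motifs and direct the same modifications of spliceosomal small nuclear RNAs. Most human members have no promoter of their own. They are cut out of introns of host genes, many of which encode ribosome or translation proteins, while the spliced RNA of hosts such as GAS5 and the SNHG genes has little or no coding content.

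Since the members start with their hosts, the starts of hosts show which letters lie where their transcription begins. The windows of 6 hosts are printed from RefSeq (GRCh38.p14), 5′ to 3′ on the strand of the gene: the 2 host members, DANCR and GAS5 as noncoding hosts, and WDR43 and NCL as hosts of the C/D RNAs that changed most in each direction. Capitals mark GCGTG, the core letters of the AhR binding site, searched on both strands. SNHG8 spans chr4:118278662-118278811 (+), SNHG33 chr3:183447508-183447657 (+), DANCR chr4:52712294-52712443 (+) and GAS5 chr1:173868996-173869145 (-), each from 100 bases before the start to 50 after it. WDR43 at chr2:28894567-28894666 (+) and NCL at chr2:231464485-231464584 (-) show the 100 bases before the start.
SNHG8: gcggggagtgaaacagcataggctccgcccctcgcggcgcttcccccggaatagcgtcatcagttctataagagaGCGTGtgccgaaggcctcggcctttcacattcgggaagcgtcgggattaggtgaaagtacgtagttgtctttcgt
SNHG33: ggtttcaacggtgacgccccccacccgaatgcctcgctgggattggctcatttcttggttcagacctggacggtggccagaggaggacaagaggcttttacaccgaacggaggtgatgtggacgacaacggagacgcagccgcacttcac
DANCR: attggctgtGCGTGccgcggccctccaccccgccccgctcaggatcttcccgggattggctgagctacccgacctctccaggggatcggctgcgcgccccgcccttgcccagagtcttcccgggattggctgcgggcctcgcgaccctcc
GAS5: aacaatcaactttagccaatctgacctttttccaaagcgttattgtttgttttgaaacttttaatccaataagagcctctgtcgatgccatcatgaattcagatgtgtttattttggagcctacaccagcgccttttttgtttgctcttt
WDR43: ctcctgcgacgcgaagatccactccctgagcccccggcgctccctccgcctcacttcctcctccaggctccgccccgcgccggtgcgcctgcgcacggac
NCL: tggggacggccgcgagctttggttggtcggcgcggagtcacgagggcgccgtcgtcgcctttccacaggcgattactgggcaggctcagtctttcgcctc

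In the full windows of 300 bases, 250 before the start and 50 after it, GCGTG occurred in 13 of 29 host genes with a window (44.8%). It occurred in 12832 of 35116 windows of all genes (36.5%). MATR3 and SNHG4 have the same window, with GCGTG at -48, and both count among the 13. SNHG8 and DANCR each held it once, at positions -25 and -91 relative to the start, and the windows of SNHG33, GAS5, WDR43 and NCL held none. A match describes letters in a window and not a bound site.

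The arrays of a group correlated at r = 0.997 (DMSO) and r = 0.999 (TCDD) over all features, and arrays of different groups at 0.989 to 0.994. Array medians ran from 8.19 to 8.22 and interquartile ranges from 2.00 to 2.21 log2 units. As a yardstick for dim signals, 95% of 67 rows of olfactory receptor genes, which these cells are not known to use, lay below 8.41. All 4 measured neuroblast markers (HAND1, HAND2, ISL1, GATA2) and 3 measured markers of the mesenchymal-type cells (PRRX1, NOTCH2, FN1) lay above that level, and all 4 immune markers, EPCAM (epithelial) and KDR (endothelial) lay below it. The summed signal of the markers (log2) was 13.22 to 13.35 in DMSO and 13.37 to 13.38 in TCDD for neuroblast markers, 12.60 and 12.72 to 12.74 for mesenchymal markers, and 9.39 to 9.43 and 9.25 for immune markers, with 1, 2 and 1 of them called. The epithelial marker was at 7.49 to 7.50 in DMSO and 7.54 to 7.56 in TCDD, and the endothelial marker at 7.06 to 7.18 and 7.05. Whether the balance of cell types had a part in the values below was not tested. In such bulk samples fewer cells of a type and less RNA per cell cannot be told apart.

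Most of the small RNA rows lay higher after TCDD, by small amounts. Means were higher in TCDD for 42 of 48 rows, against 54.8% of all features and 66.5% of protein-coding features. The median change was 0.22 on the log2 scale, against 0.023 over all features. In the limma fit over all features, at a Benjamini-Hochberg adjusted p under 0.05, 20 members were called higher and 1 lower, 21 in all. Of all features, 17.4% were called, 9.41% higher and 8.01% lower. Both TCDD values lay above both DMSO values in 38 members and below them in 3, as they did for 40.7% and 30.9% of all features, and the groups overlapped in 7 members. SNORD92, at 1.58-fold, and SCARNA1, at 1.55-fold, were the members that reached 1.5-fold in either direction, beside 226 of all 13493 features. Since the family was selected with this contrast in view, nothing is read from the excess over the background.

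Calls depended on single arrays of both groups. Without either TCDD array, and with a block for replicate number, the limma prior degrees of freedom were infinite. All features then had the same variance, so a call there was only a cut on the size of the change. The second DMSO array was below the first in 32 of 48 members, in 48.6% of all features and in 66.7% of protein-coding features. The median gap between the DMSO arrays was 0.10 for members and that between the TCDD arrays 0.041. These gaps were 0.082 and 0.083 for the C/D rows alone, and 0.083 and 0.041 for all features. Of the 21 called rows, 17 remained called without the first DMSO array, 5 without the second, 10 without the first TCDD array and 11 without the second, with the direction unchanged for all 21 each time. SNORD75, SCARNA1 and SCARNA18 were the 3 rows called in all of these settings. The number of all features called changed with the array left out too. After quantile or cyclic loess normalization of the 4 arrays, 12 and 15 of the 21 remained called. In all, 13 and 16 of the 48 members were called there, beside 11% and 14% of all features. An exact permutation test of 2 arrays against 2 cannot give a two-sided p below 0.333.

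**Figure D1:**
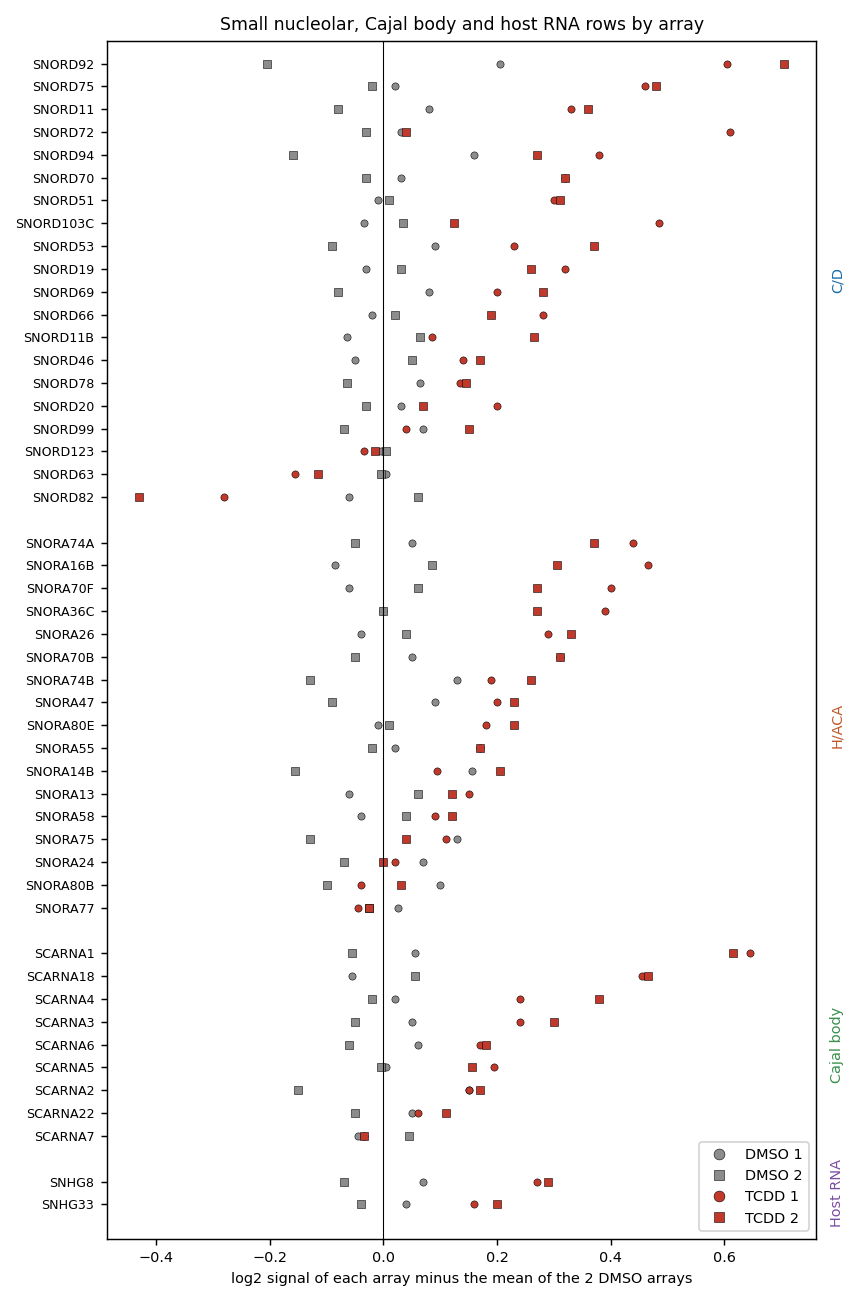
Log2 signal of each array minus the mean of the 2 DMSO arrays (x axis) for the 48 rows, ordered by class and change. Grey points are DMSO arrays and red points TCDD arrays; the red points lie right of the grey ones in 38 rows, left of them in 3 and among them in 7.

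The 2 host rows both lay higher in TCDD. SNHG8, a noncoding RNA whose intron holds the H/ACA RNA SNORA24, had log2 signals of 9.96 and 9.82 in DMSO and 10.16 and 10.18 in TCDD. The change was 0.28 (SE 0.064), which was called. SNHG8 was no longer called after quantile or cyclic loess normalization (0.14 and 0.16), nor without the second DMSO array or either TCDD array. SNHG33 had 9.08 and 9.00 in DMSO and 9.20 and 9.24 in TCDD, a change of 0.18 (SE 0.056) that was not called. Both TCDD values lay above both DMSO values in each of these rows, as they did for 40.7% of all features.

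SNORA24 did not follow the SNHG8 row. Its signals were 11.72 and 11.58 in DMSO and 11.67 and 11.65 in TCDD, so that the TCDD values lay between the DMSO values. The change was 0.0086 (SE 0.064) as deposited and -0.091 after cyclic loess normalization. SNORA24 guides a modification of ribosomal RNA.

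Among the 20 C/D rows, 8 were called higher and 1 lower, beside 9.41% and 8.01% of all features. The median change was 0.27, and 17 had higher means in TCDD, as did 54.8% of all features. SNORD92, which lies within WDR43, had the largest change of the group. Its signals were 8.52 and 8.11 in DMSO and 8.92 and 9.02 in TCDD, with a change of 0.66 (SE 0.13). The groups did not overlap, yet the DMSO arrays differed by 0.40. Without the second DMSO array the change was 0.46 and was not called, and without the first it was 0.86; the call was also lost after quantile normalization (0.65). SNORD53, within the same gene, had 10.34 and 10.16 in DMSO and 10.48 and 10.62 in TCDD, a change of 0.30 (SE 0.081). Its call was the closest to the threshold among the C/D rows, and it was lost after both normalizations, at 0.17 and 0.18, and without the second DMSO array or the second TCDD array.

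SNORD75, a guide of ribosomal RNA methylation from the GAS5 gene, gave the most stable C/D values. It had 9.59 and 9.55 in DMSO and 10.03 and 10.05 in TCDD, and the gap between groups was far wider than that within them. The change was 0.47 (SE 0.051) as deposited, 0.35 after cyclic loess normalization and 0.45 to 0.49 when 1 array was left out. SNORD78, from the same gene, had 10.64 and 10.51 in DMSO and 10.71 and 10.72 in TCDD, a change of 0.14 that was not called. The row that GAS5 shares with 8 further small RNAs of the gene had 10.43 and 10.37 in DMSO and 10.53 and 10.50 in TCDD, a change of 0.11 (SE 0.053), with a limma adjusted p of 0.161. RNAs of 1 gene thus had unequal changes, though the difference between these rows was not tested.

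NOP58, which encodes a core protein of C/D particles, holds 3 C/D members. SNORD11 had 8.77 and 8.61 in DMSO and 9.02 and 9.05 in TCDD, a change of 0.35 (SE 0.069). SNORD70 had 7.69 and 7.63 in DMSO and 7.98 in both TCDD arrays, a change of 0.32 (SE 0.052). Both were called, and both are guides for ribosomal RNA. SNORD11 lost its call after quantile normalization (0.31) and without the second DMSO array (0.26), and SNORD70 without that array (0.29) or the first TCDD array (0.32). SNORD11B had a change of 0.17 and was not called. The row of NOP58 itself had 10.78 and 10.79 in DMSO and 10.70 and 10.56 in TCDD, a change of -0.15 (SE 0.064) with a limma adjusted p of 0.129. After cyclic loess normalization the NOP58 change was -0.28 with a limma adjusted p of 0.0489, whereas SNORD11 and SNORD70 stayed higher at 0.29 and 0.35. With 1 array left out, the NOP58 change as deposited ran from -0.22 to -0.082, smallest without the second TCDD array. The small RNA rows and the row of their host thus lay on opposite sides of 0.

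SNORD82 was the 1 member called lower in the values as deposited. This guide for ribosomal RNA comes from NCL, the gene of nucleolin, and had 11.29 and 11.41 in DMSO and 11.07 and 10.92 in TCDD. The change was -0.35 (SE 0.073) as deposited and -0.47 after cyclic loess normalization. It was not called without the second DMSO array (-0.30) or the second TCDD array (-0.28). The NCL row had 11.76 and 11.72 in DMSO and the same rounded values in TCDD, a change of 0.0013 (SE 0.052). The other two members in NCL did not share the direction of SNORD82: SNORD20 had a change of 0.13 and SNORA75 one of 0.074, neither called.

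The remaining called C/D rows were higher. SNORD51, which lies in EEF1B2, the gene of a translation elongation factor subunit, had 9.96 and 9.98 in DMSO and 10.27 and 10.28 in TCDD. Its change of 0.31 (SE 0.050) shrank to 0.18 after cyclic loess normalization, where it was not called, nor was it without either TCDD array. SNORD19, in the nucleostemin gene GNL3, had 5.39 and 5.45 in DMSO and 5.74 and 5.68 in TCDD, a change of 0.30 (SE 0.054) that was not called without the second DMSO array or the first TCDD array. SNORD66, in EIF4G1, changed by 0.23 and lost its call whichever array was left out. SNORD19 and SNORD66 lay below 8.41 on all arrays.

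Of the C/D rows that were not called, SNORD72 showed how 1 array can carry a mean. Its signals were 6.39 and 6.33 in DMSO and 6.97 and 6.40 in TCDD, so that the first TCDD array alone stood apart, and the change was 0.33 (SE 0.17). SNORD94, a guide for the spliceosomal U6 RNA, changed by 0.32, SNORD103C by 0.31 and SNORD69, in GNL3 like SNORD19, by 0.24. SNORD46, a guide of ribosomal RNA methylation, had 12.57 and 12.67 in DMSO and 12.76 and 12.79 in TCDD, a change of 0.15 (SE 0.057). SNORD99 changed by 0.097, SNORD123 by -0.021 and SNORD63 by -0.13. The sign for SNORD99 and SNORD123 turned after cyclic loess normalization, at -0.015 and 0.017. SNORD63 was called lower after quantile and after cyclic loess normalization, at -0.25 in each.

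Among the 17 H/ACA rows, 7 were called higher and none lower at the same threshold, beside 9.41% and 8.01% of all features. The median change was 0.20, and 0.12 after quantile or cyclic loess normalization. SNORA74A, the U19 RNA that guides a modification of ribosomal RNA, had 8.55 and 8.45 in DMSO and 8.94 and 8.87 in TCDD. Its change of 0.40 (SE 0.061) was the largest of the class, and it kept its call except without the second DMSO array (0.35). The row shared by its hosts MATR3 and SNHG4 changed by 0.046 (SE 0.059), with a limma adjusted p of 0.574. SNORA74B, a second copy of U19 within ATP6V0E1, changed by 0.23 and was not called. Probes for the near-identical copies may share signal, so the 2 rows are uncertain as separate measurements.

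SNORA26, in the noncoding RNA gene DANCR, had 9.51 and 9.59 in DMSO and 9.84 and 9.88 in TCDD, a change of 0.31 (SE 0.055). The DANCR row had 9.29 and 9.15 in DMSO and 9.47 in both TCDD arrays, a change of 0.25 (SE 0.063) with a limma adjusted p of 0.0431. Here the small RNA and its host rose together. After cyclic loess normalization they changed by 0.20 and 0.16 and neither was called. SNORA26 also lost its call without the second TCDD array (0.29), and DANCR was not called without the second DMSO array or either TCDD array, with adjusted p of 0.0762, 0.182 and 0.14.

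SNORA16B within PPP2R5A (0.39), SNORA70F within COBLL1 (0.34), SNORA36C within AAK1 (0.33) and SNORA70B within USP34 (0.30) were also called higher. The first 3 of these lay below 8.41 on all arrays. All 4 lost their calls without the second DMSO array or the first TCDD array, SNORA16B and SNORA70F also without the first DMSO array and SNORA70B without the second TCDD array. SNORA80E, in KHDC4, had 10.24 and 10.26 in DMSO and 10.43 and 10.48 in TCDD, a change of 0.20. It was 0.08 and not called after cyclic loess normalization, and kept its call without the first DMSO array alone of the 4. The changes of SNORA47 (0.21), SNORA55 (0.17), SNORA14B (0.15), SNORA13 (0.14) and SNORA58 (0.10) were positive and not called. Those of SNORA80B (-0.0050) and SNORA77 (-0.038) were near 0, with overlapping groups.

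Of the 9 Cajal body rows, 4 were called higher and none lower, beside 9.41% and 8.01% of all features. SCARNA1 and SCARNA18 had the most stable values of the class. SCARNA1, which directs modification of the U2 RNA of the spliceosome, had 8.04 and 7.93 in DMSO and 8.63 and 8.60 in TCDD. The DMSO values lay below 8.41, the yardstick for dim signals. The change was 0.63 (SE 0.058), 0.63 again after cyclic loess normalization, and 0.58 to 0.68 when 1 array was left out. SCARNA18, within TMEM167A, had 8.36 and 8.47 in DMSO and 8.87 and 8.88 in TCDD, a change of 0.45 (SE 0.059). The SCARNA18 change ranged from 0.40 to 0.51 without 1 array. SCARNA1 and SCARNA18 both kept their calls after quantile and cyclic loess normalization. The TMEM167A row changed by 0.092 (SE 0.053), with a limma adjusted p of 0.234.

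SCARNA4, a guide for U2 in KHDC4, had 8.76 and 8.72 in DMSO and 8.98 and 9.12 in TCDD, a change of 0.31 (SE 0.066). SCARNA3, in COP1, had 7.33 and 7.23 in DMSO and 7.52 and 7.58 in TCDD, a change of 0.27 (SE 0.059). Both were called, and both lost the call without the second DMSO array, at 0.29 and 0.22, and without the second TCDD array, at 0.24 each. SCARNA4 also lost it without the first DMSO array (0.33) and after quantile or cyclic loess normalization (0.27 and 0.25). SCARNA3, whose signals lay below 8.41 on all arrays, also lost it without the first TCDD array (0.30) and after quantile normalization (0.31). The neighbours SCARNA5 and SCARNA6, which share the host ATG16L1, each changed by 0.18 and were not called, beside 0.19 for the ATG16L1 row.

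SCARNA2, a guide for U2 that no annotated gene contains, had 9.70 and 9.40 in DMSO and 9.70 and 9.72 in TCDD. Its change of 0.16 (SE 0.099) came with a gap of 0.30 between the DMSO arrays. SCARNA22, from an intron of the histone methyltransferase gene NSD2, changed by 0.091, and by -0.020 after cyclic loess normalization. SCARNA7, the U90 RNA that directs modification of U1, had 10.85 and 10.94 in DMSO and 10.86 in both TCDD arrays. Its change was -0.037, while its host KPNA4 changed by 0.22 with a limma adjusted p of 0.0529. After quantile normalization SCARNA7 was at -0.18 and KPNA4 at 0.068, and after cyclic loess normalization at -0.16 and 0.10.

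**Figure D2:**
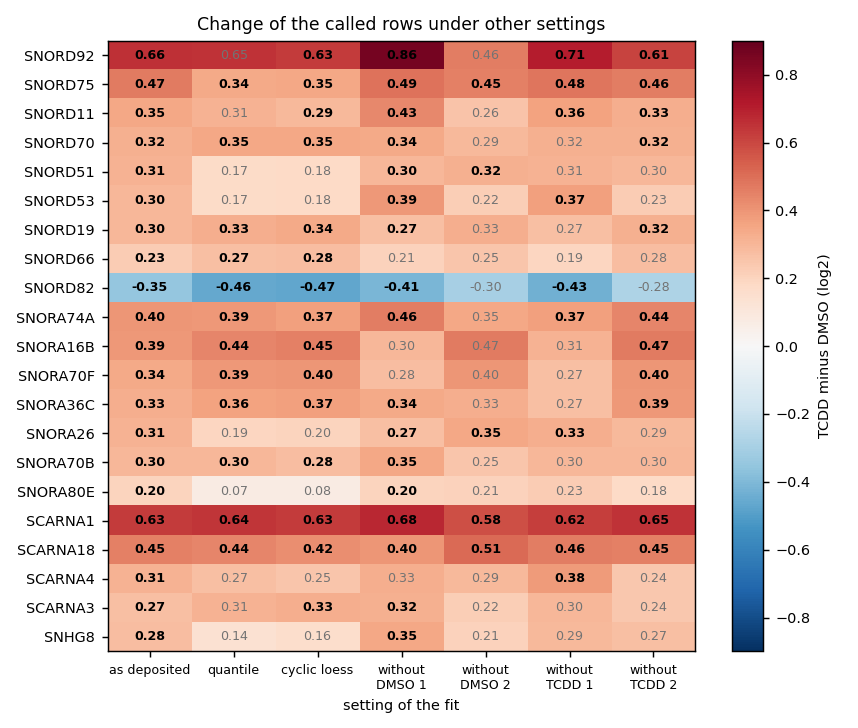
Change (TCDD minus DMSO, log2) of the 21 called rows as deposited and under 6 other settings, with bold numbers where the limma adjusted p was under 0.05 and grey numbers where it was not. Signs stay the same in every row, while bold type remains across all 7 columns for SNORD75, SCARNA1 and SCARNA18.

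The hosts were compared with the RNAs they contain. A gene counted as a host when its span in the RefSeq table held the member, without regard to strand. This gave 35 pairs of 34 members and 28 hosts in which the host had a row of its own. SNORA13 was paired with both EPB41L4A and EPB41L4A-AS1, which lie on opposite strands, so these hosts cannot both share its strand. EPB41L4A also counts among the protein-coding hosts below. The change of the member exceeded that of the host in 26 of 35 pairs, with a median difference of 0.09, and in 27 pairs with a median of 0.19 after cyclic loess normalization. Members that share a host are not independent, and the members' side of the difference was known beforehand, so no test is given. Of 25 protein-coding hosts measured, 1 was called, PPP2R5A, a regulatory subunit gene of protein phosphatase 2A and host of SNORA16B, at 0.19 (SE 0.050; limma adjusted p = 0.0473). PPP2R5A lay below 8.41 on all arrays and was not called without either TCDD array or the second DMSO array. The share of hosts called was 4.0% and their median change 0.10, beside 11.0% and 0.066 for all protein-coding features. Host means were higher in TCDD in 23 of 25 as deposited, beside 66.5% of all protein-coding features. After cyclic loess normalization they were higher in 13 of 25, and WDR43, for example, went from 0.089 to -0.014. Whether a small RNA row reports the mature RNA, its precursor or the intron of the host was not tested.

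**Figure D3:**
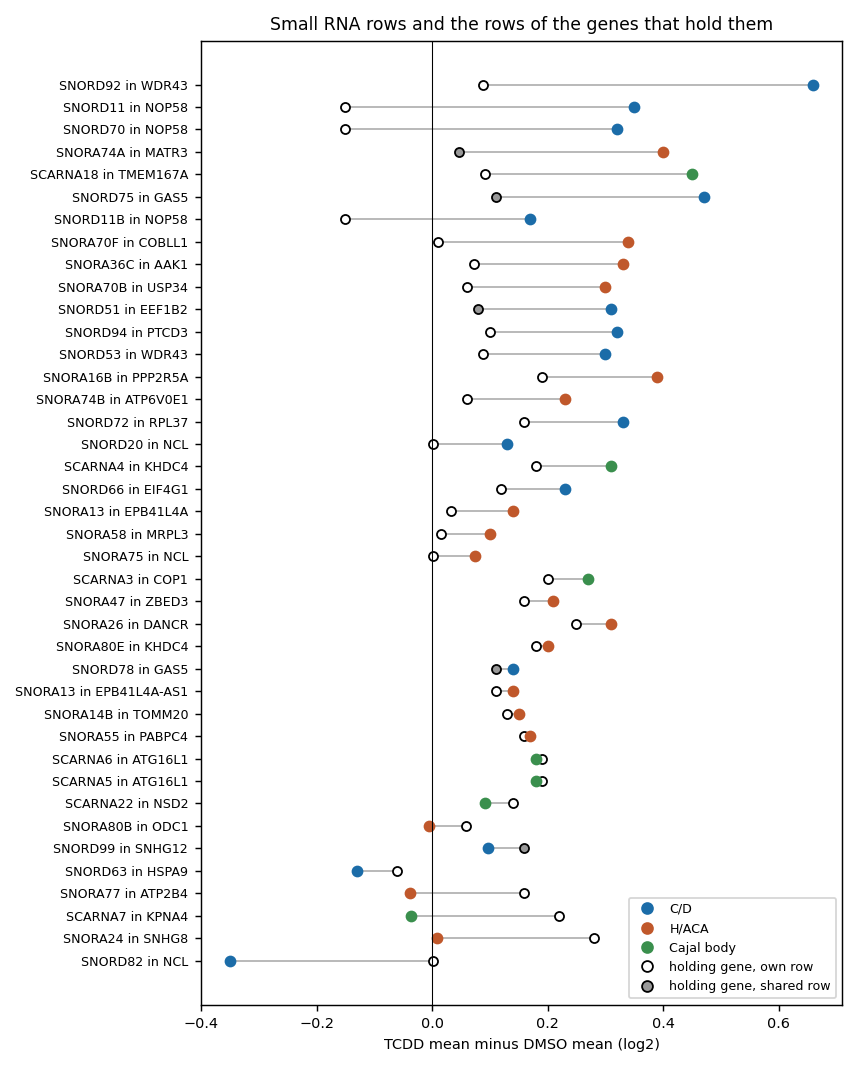
Change (TCDD minus DMSO, log2, x axis) of each small RNA row (filled, coloured by class) and of the row of the gene that contains it (open; grey where that row is shared with further symbols), joined by a line. The widest gaps upward belong to SNORD92 in WDR43 (0.66 and 0.089) and to SNORD11 in NOP58 (0.35 and -0.15), and the widest gap downward to SNORD82 in NCL (-0.35 and 0.0013).

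At most 1 gene of each pathway list was called, too few to compare the shares with the 11.0% of all protein-coding features. Of 21 listed genes for core proteins and assembly factors of the particles, 7 were measured and 1 (14.3%) was called, ZNHIT6, which acts in C/D particle assembly. ZNHIT6 had 9.17 and 9.13 in DMSO and 9.46 and 9.35 in TCDD, a change of 0.25 (SE 0.059; limma adjusted p = 0.0372). It was not called after cyclic loess normalization (0.16), nor without the second DMSO array or either TCDD array. The H/ACA protein genes GAR1 and NHP2 and the H/ACA assembly genes NAF1 and SHQ1 had changes of 0.19, 0.12, 0.23 and 0.18, none called. The median of the list was 0.18, and 0.061 after cyclic loess normalization.

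Of 23 listed genes for the U3 processome, which uses the C/D RNA U3 to process the ribosomal RNA precursor, and for other nucleolar proteins, 17 were measured and 1 (5.88%) was called. UTP3, a component of that processome, had 8.39 and 8.44 in DMSO and 8.72 in both TCDD arrays, a change of 0.31 (SE 0.051; limma adjusted p = 0.0175). It kept its call after cyclic loess normalization (0.29) and lost it without either TCDD array (adjusted p of 0.0703 and 0.0572). The median of the list was 0.068 with 16 of 17 means higher, beside 66.5% of all protein-coding features. After cyclic loess normalization the median was -0.05 with 6 of 17 higher, so that the direction depended on the scaling. NPM1 was at 0.025 and NCL at 0.0013 as deposited. RNAs of noncoding snoRNA hosts are known substrates of nonsense-mediated decay, and 2 of 12 listed genes of that pathway were measured, SMG5 (0.19) and XRN1 (0.20), neither called.

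The changes of the 46 small RNA rows went down weakly with their mean signal, with r = -0.31 and rho = -0.33 across rows of the same 4 arrays. With gene length the same values were -0.09 and -0.03. RefSeq lengths ran from 60 to 137 bases for C/D, 122 to 236 for H/ACA and 125 to 420 for Cajal body RNAs. By signal, 15 of the 48 members had a mean below 8.41 and 33 lay at or above it. Below it 8 members were called higher, beside 7.41% of all features there, and above it 12 were called higher and 1 lower, beside 11.8% called higher among all. The median change of all features was -0.046 below that level and 0.093 above it, while the members' medians were 0.30 and 0.18.

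**Figure D4:**
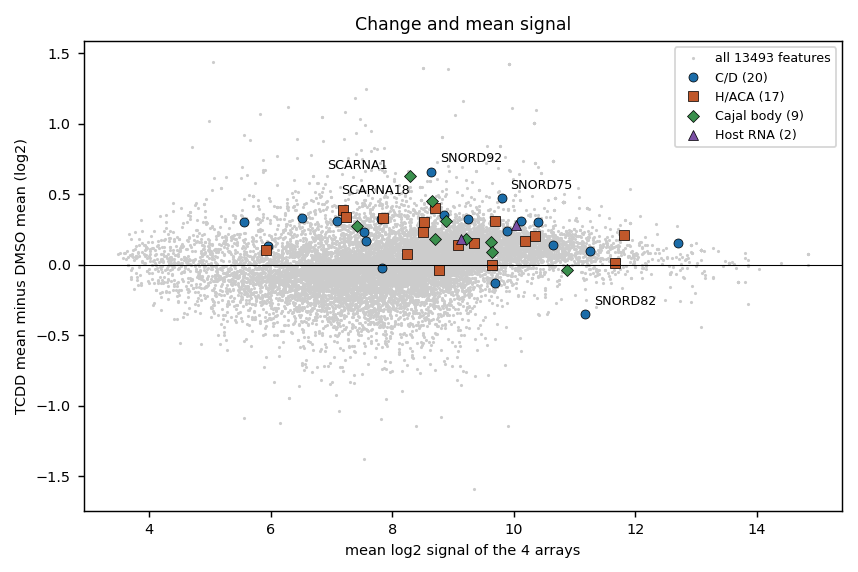
Mean log2 signal of the 4 arrays (x axis) against the change, TCDD mean minus DMSO mean on the log2 scale (y axis), for all 13493 features (grey) and for the members (coloured by class). The members lie mostly above 0 at all signals, between -0.35 (SNORD82) and 0.66 (SNORD92), within the cloud of all features.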

How the data were processed

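The values were deposited as log2 signals, for which the submitters' processing notes name RMA. Its settings, version and summary level, and the genome build, are not given in the sources used here. Arrays were grouped by title, 2 DMSO and 2 TCDD. The labels call them biological replicates, but nothing says that they came from separate cultures, so p-values measure the spread between these arrays.

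All features entered 1 fit in limma 3.58.1 (R 4.3.3; lmFit and eBayes, no block, 2 residual and 4.27 prior degrees of freedom). Tests were two-sided, with Benjamini-Hochberg adjustment over all 13493 features and calls at an adjusted p under 0.05. The script was tested on simulated data. A gene in a list was taken at its brightest feature. RefSeq names for GRCh38.p14 gave symbols, hosts and start windows, and updated no member symbol. Its table used here lists no strand, so hosts were taken by containment alone although the same strand had been planned. Sequences of the small RNAs themselves were not used here. Quantile and cyclic loess normalization, median centring, a filter on the dimmest 50%, a trended robust prior, a replicate block, identical features counted once and leaving out each array were tried.

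The members and lists were chosen with earlier results of these data known. Named are all host and Cajal body rows, called C/D and H/ACA rows, the 6 of each with the highest signals and the 6 with the highest and lowest changes, members of the 4 hosts with most members, and called listed genes. Rows named beyond this rule were chosen after their values were seen.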

Additional observations from a re-analysis of the deposited data

How the results depend on the processing

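The counts of calls depended on which arrays were used. Leaving out 1 array at a time, all features called ranged from 644 to 4661, C/D rows from 2 to 11, H/ACA rows from 1 to 10 and Cajal body rows from 2 to 6. Host rows ranged from 0 to 2, particle and assembly genes from 0 to 6, processome genes from 0 to 6, decay genes from 0 to 2 and protein-coding hosts from 0 to 9. The fewest calls came without the second DMSO array, 5 members and 4.77% of all features, and the most without the first, 29 members and 34.5%. The median change ranged from 0.15 to 0.27 for H/ACA and from 0.17 to 0.31 for Cajal body rows.

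The deviations of same-numbered arrays correlated at 0.037 over features, so the numbers were not taken to pair them. The replicate block, a fit with the same variance for all features, called 3634 features and 27 members. It also called 2 particle and assembly genes, 2 processome genes, 1 decay gene and 2 protein-coding hosts. Quantile normalization called 1478 features, 2 Cajal body and 0 host rows and 2 protein-coding hosts, with medians of 0.12 for H/ACA and 0.13 for host rows. Cyclic loess normalization gave the same medians, 0 host rows and 2 protein-coding hosts. Among the 6747 brightest features, 1295 were called higher and 418 lower (1270 and 1081 of all), with 2 host rows, 3 particle and assembly genes, 3 processome genes, 2 decay genes and 5 protein-coding hosts. The trended robust prior called 2 particle and assembly genes and 3 protein-coding hosts. An unadjusted p under 0.05 with 1.5-fold left 1 C/D, 0 H/ACA, 1 Cajal body and 0 host rows, beside 226 of all 13493 features.

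Among members, signs turned only in rows that were not called. After quantile normalization SNORD78 was at -0.0023, SNORD123 at 0.016, SNORA24 at -0.068 and SCARNA22 at -0.033, and after cyclic loess SNORD99 at -0.015, SNORD123 at 0.017, SNORA24 at -0.091 and SCARNA22 at -0.020. SNORA80B was at 0.0053 with median centring. Without single arrays SNORA80B ranged from -0.11 to 0.098, SNORA24 from -0.061 to 0.078, SNORA14B from -0.0037 to 0.31, SNORA75 from -0.053 to 0.20 and SCARNA7 from -0.085 to 0.010. The cause was not tested. The 15 members below 8.41 lie at the level of the olfactory receptor rows, and whether background limits their changes was not tested. Counting the row annotated with SNORA73B under 2 identifiers as H/ACA added no call and was chosen after seeing the data.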

Other observations

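Rows shared by several symbols held further members of the family, and the ones given here were chosen after their values were seen. Of the 18 shared rows, 2 were called, both higher, against 17.4% called of all features. Means were higher in TCDD in 17 of them, against 54.8% of all features, with a median change of 0.12. After cyclic loess normalization 11 of the 18 were higher, with a median of 0.07. The called rows list SNORD103A and SNORD103B, copies of a C/D RNA, and hold identical values, so that they are 1 measurement. They had 6.35 and 6.29 in DMSO and 7.48 and 7.25 in TCDD, a change of 1.05 (SE 0.084) with a limma adjusted p of 0.0038. SNORD103C, the copy with a row of its own, changed by 0.31. All 4 values of the shared rows lie below 8.41, and the difference between the copies was not tested.

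The row annotated with SNORA73B under 2 identifiers had 13.23 and 13.20 in DMSO and 13.31 and 13.37 in TCDD, a change of 0.12 that was not called. The row of RCC1, SNHG3 and SNORA73A changed by 0.20, that of RNF149 and SNORD89 by 0.20 and that of VSIG8 and SNHG28 by -0.11, none called.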
